A study of Daphnia magna with 16 samples.

Results

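Clone 16 is a line of the water flea Daphnia magna in which CRISPR-Cas9 had mutated both copies (-/-) of the gene for tryptophan hydroxylase (TRH), the enzyme that starts the synthesis of serotonin from tryptophan. Its 4 females, 1 to an array, were compared with 4 females of the wild type clone F (W, +/+), the clone from which the mutant lines had been made. These are 8 of the 16 one-colour arrays of the study. The other arrays, 4 each, hold the mono-allelic line T+ (labelled Clone 13 +/-) and the second bi-allelic line, clone 17 (-/-), and were used in the shared model and to show where clone 16 differed from the other mutants. The labels give the RNA as that of whole females and their age as 5 days in one field and 4 days in another, while the methods describe adults taken, without their broods, at the end of a reproduction experiment. Each mutant genotype is 1 clonal line, so the mutated alleles and the line that carries them cannot be told apart.

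Serotonin is a transmitter and hormone that acts on growth, reproduction and behaviour across animals, and tryptophan not used for it is mostly broken down along the kynurenine pathway. The body of Daphnia is covered by a cuticle of chitin fibres and cuticular proteins, which an adult female sheds and rebuilds at every moult, once in each reproductive cycle. The lipids that go into eggs and membranes are made from fatty acids, and isoprenoids from the mevalonate pathway. The probes named here carry the gene names that the study's supplementary files give to 51 probes under gene ontology terms. Those probes were chosen by the study on these same arrays, so the direction of their change is not independent evidence. No probe in the annotation used carries the name of tryptophan hydroxylase, and the mutated transcript was not analysed here.

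Of 17286 tested probes, clone 16 had 145 below W and 22 above it. Tested probes are those with a signal over that of the negative controls on 4 or more of the 16 arrays, and calls needed an adjusted p below 0.05 (limma, Benjamini-Hochberg over all tested probes) together with a change of at least 1.5-fold. The calls were 0.839% of the tested probes for lower, 0.127% for higher and 0.966% in both directions. The median log2 fold change was −2.69 among the lower probes, 1.55 among the higher probes and 0.11 among all tested probes. Of the lower probes 99 fell at least 4-fold. The annotation used gives a gene model to 291 tested probes only, among them 129 of the 145 lower and 2 of the 22 higher probes, and gives a gene name to 24 lower and no higher probes. The genes described below are therefore on the lower side because those are the ones with names here, and say nothing of what the higher probes encode. The gene models come from supplementary lists of probes that the study found changed on these same arrays. How many called probes carry a gene model is therefore no independent result. At an unadjusted p-value below 0.05 the balance was the other way, with 1043 lower and 1656 higher probes.

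**Figure D1:**
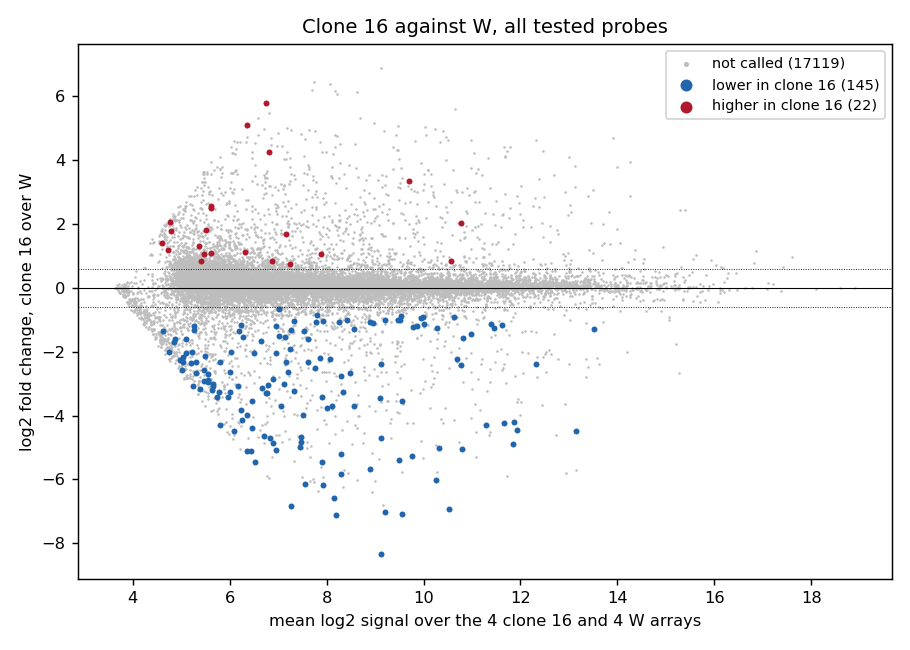
Each point is a tested probe, with its mean log2 signal over the 8 arrays of clone 16 and W on the horizontal axis and its log2 fold change, clone 16 over W, on the vertical axis. The 145 probes called lower reach −8.35, the 22 called higher reach 5.78, and the dotted lines mark 1.5-fold.

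The median SD of a tested probe within clone 16 was 0.224 on the log2 scale, against 0.271 in T+, 0.272 in clone 17 and 0.406 in W. Pairs of arrays correlated at 0.930 to 0.983 within clone 16, 0.775 to 0.985 within T+, 0.764 to 0.989 within clone 17 and 0.847 to 0.957 within W. The most alike pairs of T+ and clone 17 were thus no less alike than those of clone 16. Among the lower probes the median SD was 0.597 in clone 16 and 0.607 in W. By the scanner's own mark, 13214 to 14694 probes per clone 16 array and 9918 to 13676 per W array stood well above background. The lowest number was that of W replicate 7, whose signals were deposited rounded to 3 digits and without a header. Its negative controls had a 95th percentile of 7.01 in log2 signal, against 4.99 to 5.87 on the other arrays. Without W replicate 7 there were 148 lower and 8 higher probes in clone 16.

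Most of the cuticle constituent probes that the study lists were called lower in clone 16. All 11 had passed the background filter, and the study had chosen them on these same arrays. Of the 11, 8 were called lower and none higher, beside 0.839% and 0.127% of all tested probes. The same shares stand beside the counts of each list below. The median log2 fold change of the 11 was −4.21, against 0.11 over all tested probes, and their range was −7.03 to −2.62. In bulk RNA of whole animals, fewer cuticle-forming cells and less RNA per cell cannot be told apart. Values below are normalized log2 signals, given for replicates 3, 5, 7 and 9 in that order.

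The probe for cuticular protein 72 with the smallest p-value, CUST_123147, had 3.92, 3.90, 4.03 and 3.77 in clone 16, against 8.54, 9.53, 9.50 and 8.43 in W. The groups lay far apart, and none of the 4 clone 16 arrays was well above background while all W arrays were. No T+ or clone 17 array was either, so the W arrays alone could bring this probe past the filter of 4 arrays. The decrease was at least 30.7-fold (adjusted p = 3.40e-07, limma). Such a bound sets the W mean against, per clone 16 array, the dimmest signal marked as well above background or this probe's signal, whichever was larger. Where the probe's signal was larger on every array, the bound is the fitted fold itself. No bound given here allows for the spread between females. Cuticular protein 50Cb, measured by CUST_67477, had 5.50, 3.81, 8.73 and 4.76 in clone 16, against 13.70, 11.82, 11.97 and 13.42 in W. Clone 16 replicate 7 stood more than 3 log2 units above the other clone 16 arrays, was the only one of them well above background, and was still below every W array. The fitted change was −7.03 log2 units (SE 1.18, 95% confidence interval −9.56 to −4.49, adjusted p = 0.0151, limma).

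Cuticular protein 49Ag, measured by CUST_102541, was bright on every array, with 8.95, 8.50, 12.49 and 9.12 in clone 16 and 14.78, 13.56, 13.42 and 14.14 in W. Again the groups did not overlap and replicate 7 was the highest clone 16 array. The change was −4.21 log2 units (SE 0.658, adjusted p = 0.00951, limma). The probe named cuticle protein, CUST_105652, had 6.30, 7.24, 8.68 and 6.06 in clone 16, against 16.16, 12.27, 12.04 and 15.48 in W. All clone 16 values were more than 3 log2 units below the lowest W value, and W replicates 3 and 9 were the highest. This gave −6.92 on the log2 scale (SE 1.39, adjusted p = 0.0370, limma).

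The other 4 called cuticle probes were CUST_97562 (cuticular protein hypothetical 28) with a log2 fold change of −6.02, the second cuticular protein 72 probe CUST_67490 with −4.99, CUST_97578 with −3.28, named only AGAP000345-PA after a mosquito gene, and CUST_161118. The last had no clone 16 array well above background and was at least 8.18-fold lower, and it is named only by a conserved-domain match to DNA polymerase III subunits, although listed under cuticle. In CUST_67490 and CUST_97578 replicate 7 was the only clone 16 array well above background. Their adjusted p-values were 0.0151 to 0.0480 (limma), and the calls of CUST_97562 and CUST_97578 were lost in 21 and 18 of 31 alternatives. The 3 cuticle probes not called were CUST_8279 and CUST_111187, both of cuticular protein RR-2 family member 23, and CUST_59848, a second cuticular protein 50Cb probe from another gene model. Their log2 fold changes were −3.78, −2.62 and −2.66, with adjusted p-values of 0.244, 0.221 and 0.253 (limma). In CUST_59848 clone 16 had 7.22, 3.65, 9.20 and 7.25, against 9.34, 9.60, 9.89 and 9.13 in W. There clone 16 replicate 7 lay inside the W range and replicate 5 was near background.

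**Figure D2:**
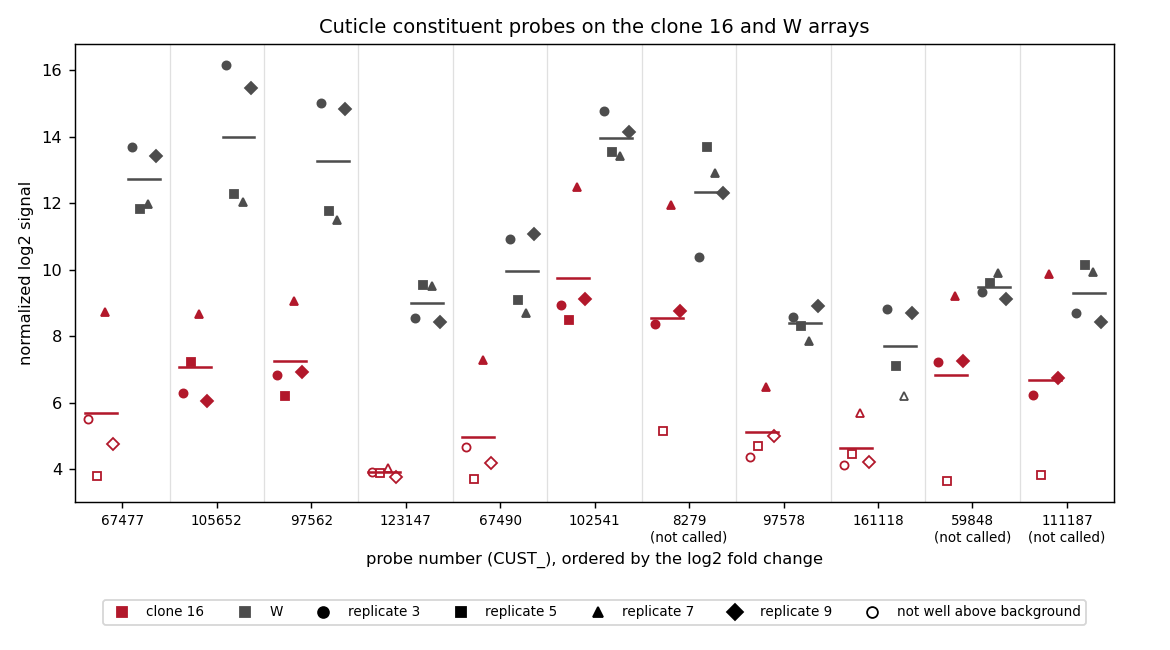
Normalized log2 signal (vertical axis) of the 11 cuticle probes on the 4 clone 16 arrays (red) and 4 W arrays (grey), ordered from the largest fall on the left, with the mean as a line. Replicate 7, the triangles, was the highest clone 16 array for all 11 probes, and open symbols, not well above background by the scanner's mark, are almost all of clone 16.

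Among the listed probes, those for proteins that bind or turn over chitin were split between large decreases and probes that stayed near W. Of 10 probes listed under chitin binding 8 were tested and 3 were called lower, all 3 cuticular proteins analogous to peritrophins, which carry chitin-binding domains. Their log2 fold changes were −4.72 for CUST_18986 (1-F), −3.46 for CUST_80943 (1-E) and −3.28 for CUST_87769 (3-D2), with adjusted p-values of 0.0447, 0.0432 and 0.00499 (limma). The call of CUST_18986 was lost in 20 of 31 alternatives and that of CUST_80943 in 17, and in CUST_18986 replicate 7 was the only clone 16 array well above background. In CUST_87769 the clone 16 values were 4.31, 3.68, 5.81 and 3.65, against 7.75, 6.62, 8.28 and 7.91 in W. No clone 16 array reached the lowest W array, and replicate 7 was the only clone 16 array well above background. A further peritrophin-1 probe of the same gene model, CUST_45817, was below the filter and not tested, with 3.83 to 4.21 in clone 16 and 5.45 to 7.80 in W.

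Chitinases, which degrade chitin, were not called. The 4 tested chitinase probes, all of 1 gene model, had log2 fold changes of 0.02 to 0.14 with 95% confidence intervals that together ran from −0.62 to 0.90. Chitotriosidase-1, measured by CUST_33489, had 8.77, 8.24, 8.57 and 8.23 in clone 16 and 8.40, 8.50, 8.44 and 8.38 in W. Those ranges overlap. Chitin deacetylase, which removes acetyl groups from chitin, gave 6.64, 6.87, 6.94 and 6.36 in clone 16, against 8.36, 7.95, 8.07 and 8.69 in W (CUST_100299). All 4 clone 16 values lay below all 12 other arrays of the series, as was so for 0.359% of the tested probes and no other listed probe. No listed probe lay above all 12, where the share of the tested probes was 0.243%. Its log2 fold change of −1.56 (95% confidence interval −2.36 to −0.77) did not pass the threshold (adjusted p = 0.0665, limma).

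The list on aminosugar metabolism held 9 probes, of which 7 were tested and 5 called lower, with a median of −1.56. Besides the 3 peritrophin-like proteins these were 2 enzymes of glucosamine breakdown. Oscillin is the Drosophila name of a glucosamine-6-phosphate isomerase, and its probe CUST_25449 had 12.79, 12.69, 13.16 and 12.80 in clone 16, against 14.48, 14.09, 13.70 and 14.37 in W. Amidohydrolase domain containing 2 is the deacetylase of N-acetylglucosamine phosphate, and its probe CUST_51858 had 9.55, 9.61, 9.82 and 9.58 in clone 16, against 11.01, 10.87, 10.58 and 11.17 in W. Both were bright on all 8 arrays, neither pair of groups overlapped, and the clone 16 arrays lay close together. The log2 fold changes were −1.30 (SE 0.216, adjusted p = 0.0137, limma) and −1.27 (SE 0.250, adjusted p = 0.0322, limma).

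Among lipid enzymes, clone 16 had less signal for phospholipase A2, which releases fatty acids such as arachidonic acid from membrane phospholipids. Its probe, CUST_89819, had 3.86, 3.65, 5.57 and 3.63 in clone 16, against 9.37, 7.37, 7.47 and 9.05 in W. Only clone 16 replicate 7 was well above background among the clone 16 arrays, and it too lay below every W array. On the log2 scale the change was −4.14 (SE 0.532, 95% confidence interval −5.28 to −3.00, adjusted p = 0.00284, limma). ELOVL fatty acid elongase 4, which lengthens very long chain fatty acids, was not well above background on any clone 16 array (CUST_24704, 3.65, 3.65, 5.12 and 3.62) and had 7.66, 6.57, 6.23 and 7.24 in W. That is at least a 6.17-fold decrease (adjusted p = 0.0272, limma), with W replicate 7 the only W array not well above background. A second elongase 4 probe, from another gene model (CUST_38871), had a log2 fold change of −0.50 and an adjusted p of 0.136 (limma).

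Smaller decreases were measured on probes that were bright in all 8 females. Fatty acid desaturase (CUST_85215), which puts double bonds into fatty acids, had 6.50, 6.77, 6.75 and 6.42 in clone 16, against 7.89, 7.32, 8.69 and 7.84 in W. The groups did not overlap, with a change of −1.33 log2 units (SE 0.227, adjusted p = 0.0167, limma). Alkylglycerone phosphate synthase (CUST_50048), an enzyme of ether lipid synthesis, fell by 0.86 on the log2 scale (adjusted p = 0.0470, limma), a call lost in 19 of 31 alternatives. The probe named alkyldihydroxyacetonephosphate synthase (CUST_24996), a synonym for that enzyme, had a log2 fold change of −0.81 and an adjusted p of 0.0509 (limma). In all, 5 of the 14 tested probes under lipid biosynthesis and 5 of the 10 under cellular lipid metabolism were called lower, with medians of −0.995 and −1.34. Every tested probe of both lists had a mean below that of W. Among those not called were 3 probes named fatty acid hydroxylase domain containing 2 (CUST_82991, CUST_82992 and CUST_103899), with log2 fold changes of −1.40, −1.35 and −0.87 and adjusted p-values of 0.205, 0.257 and 0.506 (limma).

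HMG-CoA synthase, an enzyme at the head of the mevalonate pathway was lower, and the enzymes before and after it were too dim to test or to give a fold. HMG-CoA (hydroxymethylglutaryl-CoA) synthase makes HMG-CoA, the precursor of isoprenoids, from the product of acetyl-CoA acetyltransferase, and has 4 probes of 1 gene model here. CUST_87067 carries the name of the mitochondrial form and the others that of HMG-CoA synthase 1, so the names do not settle which form they measure. The probe CUST_87067 had 9.58, 9.36, 9.59 and 9.36 in clone 16, against 10.47, 10.31, 10.42 and 10.49 in W. Both groups were tight and did not overlap. The 4 probes gave log2 fold changes of −0.95, −0.99, −1.04 and −1.06, all called, with adjusted p-values of 0.0237 to 0.0390 (limma). HMG-CoA reductase (CUST_31810), the rate-limiting enzyme after it, was not well above background in any of the 8 females by the scanner's mark and gave no fold. Of the 4 probes listed under isoprenoid biosynthesis 2 were tested and 1 was called. Phosphomevalonate kinase and diphosphomevalonate decarboxylase were well above background on no array and were not tested. Cytosolic acetyl-CoA acetyltransferase (CUST_129188) was not tested either, with 3.74 to 5.12 in clone 16 and 5.18 to 6.51 in W.

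The list on acyl transferase activity had 6 of 9 tested probes called lower and the second lowest median, −2.92. The median was −2.63 with probes well above background on no clone 16 array set to their bounds. This list shares the elongase and HMG-CoA synthase with the lipid lists. Its other 3 called probes are named nose resistant to fluoxetine protein 6-like, membrane proteins known from Caenorhabditis elegans mutants that withstand fluoxetine, a blocker of serotonin uptake. CUST_143252 had 4.71, 3.98, 5.61 and 4.47 in clone 16, none well above background, against 8.89, 7.86, 7.71 and 8.53 in W. Its decrease was at least 11.7-fold (adjusted p = 0.00293, limma). A pair of probes of another gene model gave a log2 fold change of −3.42 in CUST_138878 (adjusted p = 0.0247, limma) and a decrease of at least 8.69-fold in CUST_38023 (adjusted p = 0.00951, limma), which was not well above background on any clone 16 array. The 2 probes named transforming growth factor, beta-induced, in the same list were not called, at −3.37 and −1.46 with adjusted p-values of 0.0514 and 0.409 (limma).

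**Figure D3:**
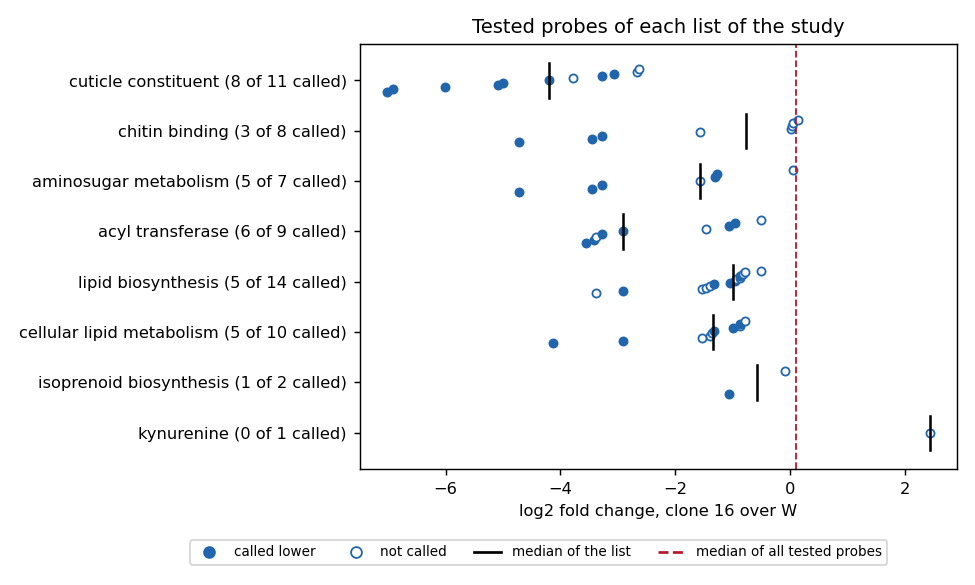
Log2 fold change, clone 16 over W (horizontal axis), of every tested probe in 8 lists of the study, filled where called and open where not, with the median of each list in black. Cuticle constituents have the lowest median, −4.21, chitin binding splits into a low group and 4 chitinase probes near 0, and the dashed line is the median of all tested probes, 0.11.

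Over all lists 45 of the 51 probes were tested, 24 were called lower and none higher, and 40 of the 45 had a mean below that of W. Their median log2 fold change was −1.46, against 0.11 over all tested probes. In 30 of the 45 the clone 16 arrays lay below all W arrays and in 1 above, where the shares among all tested probes were 4.82% and 8.02%. The median of the 45 was −1.82 on the first slide and −1.19 on the second. These within-slide values place W replicate 7 by its spot coordinates, which match the 1 free place on the second slide.

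Tryptophan 2,3-dioxygenase (TDO2), which opens the ring of tryptophan in the first step to kynurenine, was the 1 listed probe whose clone 16 arrays all lay above W. CUST_19559 had 6.72, 7.09, 5.18 and 6.15 in clone 16, against 3.76, 3.80, 3.94 and 3.85 in W. All clone 16 arrays were higher, 3 of them well above background, and no W array was. The fold was at least 4.10, but the adjusted p was 0.146 (limma), so the probe was not called. Its value in T+ was 3.83, 6.93, 3.83 and 3.78, and in clone 17 it was 3.82, 6.67, 3.80 and 3.87. In each of those lines only replicate 5 was as high as clone 16. With only the 8 arrays of clone 16 and W in the model TDO2 was called, as it was without T+ replicate 5, without both arrays numbered 5 and with array weights, and its adjusted p ran from 0.000432 to 0.354 over all alternatives. Kynurenine formamidase, the next enzyme, was not tested. It had 4.60, 7.13, 3.74 and 4.40 in clone 16, 4.00, 7.09, 3.71 and 3.89 in T+, 3.73 to 4.57 in clone 17 and 3.77 to 4.01 in W (CUST_4536), and was well above background only on replicate 5 of clone 16 and of T+.

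Of the probes without a gene name, the largest increases among those well above background on all 4 clone 16 arrays were CUST_148729 and CUST_48867. CUST_148729 had 9.93, 11.09, 7.57 and 10.02 in clone 16, against 4.12, 3.74, 3.82 and 3.78 in W, and was at least 43.2-fold higher (adjusted p = 0.0227, limma). CUST_48867 had 9.52, 9.90, 7.31 and 8.96 in clone 16, against 3.82, 3.82, 3.79 and 3.83 in W, and was at least 25.5-fold higher (adjusted p = 8.41e-05, limma). In both, clone 16 replicate 7 was the lowest of its line and no W array was well above background. The largest fitted decreases were in CUST_53481, with 3.76, 4.62, 7.59 and 3.80 in clone 16 and 15.07, 11.77, 11.70 and 14.64 in W, and in CUST_105633, with 4.40, 4.70, 4.76 and 4.66 in clone 16 and 14.00, 9.79, 9.26 and 13.99 in W. CUST_53481 changed by −8.35 log2 units (SE 1.32, adjusted p = 0.00984, limma), with replicate 7 the only clone 16 array well above background, and CUST_105633 was at least 140-fold lower (adjusted p = 0.00284, limma). W replicates 3 and 9 were again far above W replicates 5 and 7.

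The same arrays of each clone were on top in most of the lower calls. Among the 145 lower probes, W replicates 3 and 9 were both above W replicates 5 and 7 in 103 probes (71.0%), against 28.3% of all tested probes and 3 of the 22 higher probes (13.6%). Clone 16 replicate 7 was the highest clone 16 array in 117 (80.7%), against 24.7% of all tested probes, and in 22 of the 24 called probes with a name. Where exactly 1 clone 16 array was well above background, in 38 lower probes, that array was replicate 7 each time. In 40 further lower probes no clone 16 array was well above background, and in 51 all 4 were. The cuticle list shows the size of the division. Its median difference from the W mean was −5.02, −5.84, −2.01 and −4.85 in clone 16 replicates 3, 5, 7 and 9, and 0.81, −0.42, −0.56 and 0.49 in the W replicates. Without clone 16 replicate 7 the number of lower probes was 184 and that of higher probes 22.

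The number of probes in which clone 16 differed from the other mutant lines depended on the arrays numbered 5. Replicate 5 of clone 16, T+ and clone 17 each lay at position 4 along the slide, 1 of its ends. No other mutant array lay there, and W replicate 7 did by its coordinates. Number and position therefore cannot be told apart among the mutant arrays. Against T+, 8 probes were called (3 lower and 5 higher, 0.0463% of those tested), and against clone 17 1 probe (0.00579%). At an unadjusted p below 0.05 the numbers were 3572 and 2764. Without T+ replicate 5 there were 2642 calls against T+ and 405 against clone 17, without clone 17 replicate 5 there were 891 and 1792, and without both arrays 3193 and 2696. With array weights there were 4087 and 3464. With all 16 arrays and no weights, none of the 24 called named probes differed from either line after adjustment, with lowest adjusted p-values of 0.130 against T+ and 0.235 against clone 17 (limma), which does not show that the lines are alike. The median log2 fold changes against W of the 45 listed probes were −1.46 in clone 16, −1.89 in T+ and −1.43 in clone 17, and those of the 11 cuticle probes were −4.21, −5.09 and −4.12 in the same order. Of the 51 listed probes 24 were called lower in clone 16, 32 in T+ and 10 in clone 17, beside 0.839%, 1.29% and 0.388% of all tested probes, and calls in both directions made up 0.966%, 1.61% and 0.422%. All these comparisons rest on the same 4 W arrays, and whether their counts differ was not tested.

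The probe called against both other mutants was CUST_48867, which had 3.81, 4.43, 3.89 and 4.12 in T+ and 3.80, 4.87, 3.78 and 3.85 in clone 17. No array of T+, clone 17 or W was well above background, and the lowest clone 16 array, at 7.31, lay above all of the other 12. The background filter asks for 4 arrays, so the clone 16 arrays alone could bring this probe into the tested set. The signal in clone 16 exceeded that in T+ at least 29.0-fold (adjusted p = 0.000470, limma). Over clone 17 the bound was 20.7-fold (adjusted p = 0.000487, limma), and both calls stood in all 30 alternatives. Chitotriosidase-1 was the 1 named probe called against T+. It had 6.50, 7.11, 6.47 and 6.57 in T+, below all clone 16 arrays, and 8.71, 7.35, 7.55 and 8.10 in clone 17. The log2 fold change, clone 16 over T+, was 1.79 (adjusted p = 0.0215, limma), and that over clone 17 was 0.52 (adjusted p = 0.338, limma). Of the same gene model, CUST_23637, CUST_23641 and CUST_101191 had 1.72, 1.80 and 1.35 over T+. They were not called (adjusted p = 0.0599, 0.130 and 0.130, limma). The call of CUST_33489 against T+ ended without T+ replicate 3, 7 or 9 and without clone 16 replicate 3, 7 or 9, with an adjusted p of up to 0.119.

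A pair of cuticle probes had lower means in clone 16 than in the other mutants by more than 4 log2 units, and neither difference passed. CUST_105652 had 13.18, 8.02, 11.70 and 12.76 in T+ and 15.54, 9.59, 13.40 and 13.45 in clone 17, beside the 6.06 to 8.68 of clone 16. T+ replicate 5 lay inside the clone 16 range and clone 17 replicate 5 lay above it. The log2 fold changes were −4.35 (95% confidence interval −7.33 to −1.36, adjusted p = 0.130, limma) over T+ and −5.93 (−8.91 to −2.94, adjusted p = 0.235, limma) over clone 17. CUST_97562 gave −4.32 and −5.45 with the same adjusted p-values. HMG-CoA synthase had the opposite order, with CUST_87067 at 8.77, 9.31, 8.86 and 8.90 in T+ and 9.33, 9.61, 8.85 and 8.82 in clone 17. Clone 16 was 0.51 above T+ (adjusted p = 0.132, limma) and 0.32 above clone 17 (adjusted p = 0.403, limma).

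**Figure D4:**
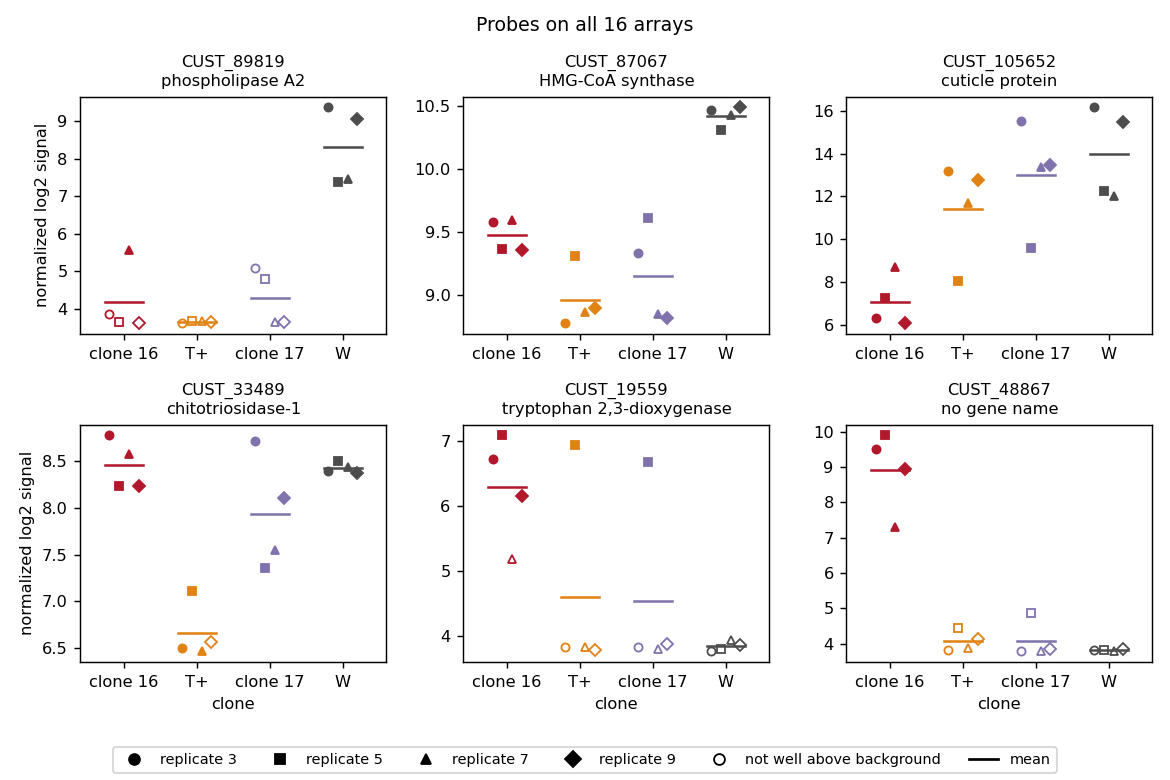
Normalized log2 signal (vertical axes, each with its own range) of 6 probes on all 16 arrays, by clone, with the mean as a line and open symbols for arrays not well above background. Phospholipase A2 and HMG-CoA synthase are below W in every mutant female, chitotriosidase-1 is lowest in the 4 T+ females, TDO2 is high in clone 16 and in replicate 5 of T+ and clone 17, and CUST_48867 is high in the 4 clone 16 females alone.

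How many probes were called in clone 16 depended on which arrays entered the model. Leaving out a clone 16 array gave 35 lower and 1 higher without replicate 3, 43 and 1 without replicate 5, and 37 and 3 without replicate 9. Leaving out a W array gave 66 and 29 without replicate 3, 84 and 17 without replicate 5, and 38 and 8 without replicate 9. Arrays of the other mutants bear on the count through the shared estimate of the spread. Without T+ replicate 5 there were 376 lower and 323 higher probes, without clone 17 replicate 5 275 and 221, and without both 686 and 840, of which 145 and 22 were those called in the full model. Leaving out each of the other 6 arrays of T+ and clone 17 gave 86 and 12 without T+ replicate 3, 84 and 12 without T+ replicate 7, 86 and 12 without T+ replicate 9, 139 and 18 without clone 17 replicate 3, 93 and 14 without clone 17 replicate 7, and 90 and 12 without clone 17 replicate 9. Probes that were lower made up 86.8% of the calls, 45.1% with only the 8 arrays of clone 16 and W in the model and 49.6% with array weights.

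Of the 24 called named probes 1, CUST_123147 for cuticular protein 72, stayed called in every alternative, with log2 fold changes of −5.44 to −2.78, and 5 (CUST_97562, CUST_18986, CUST_50048, CUST_97578 and CUST_80943) lost the call in more alternatives than they kept it. Another 5, CUST_102541 (cuticular protein 49Ag), CUST_87769 (peritrophin-like 3-D2), CUST_143252 and CUST_38023 (nose resistant to fluoxetine 6-like) and CUST_89819 (phospholipase A2), lost the call in 1 alternative each. That was the model with the place at 1 end of the slide, position 1, as a block. W replicates 3, 5 and 9 and 1 clone 17 array lay at position 1, and no clone 16 array. W replicate 7, by its coordinates, lay at the other end, position 4. With position 1 in the model 6 lower and 2 higher probes were called, 1 of them named, while the fold moved by over 1.5 times in 3 of the 24. In CUST_123147 W replicate 7 had 9.50, and clone 17 replicate 7, the 1 mutant array at position 1, had 3.88. These are single arrays, and the place of W replicate 7 was only inferred. The median local background signal was 35 to 37 on the arrays at position 1 and 41 to 47 on all others. Since W and position 1 largely coincide, clone and place cannot be told apart, and the part of the place was not tested further for any probe. Without clone 16 replicate 3, 5 or 9, 6, 7 and 6 of the 24 stayed called, and without W replicate 3, 5, 7 or 9 10, 15, 20 and 6 did, the largest adjusted p being 0.157. No change of sign was seen in any of the 24 under any alternative.

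**Figure D5:**
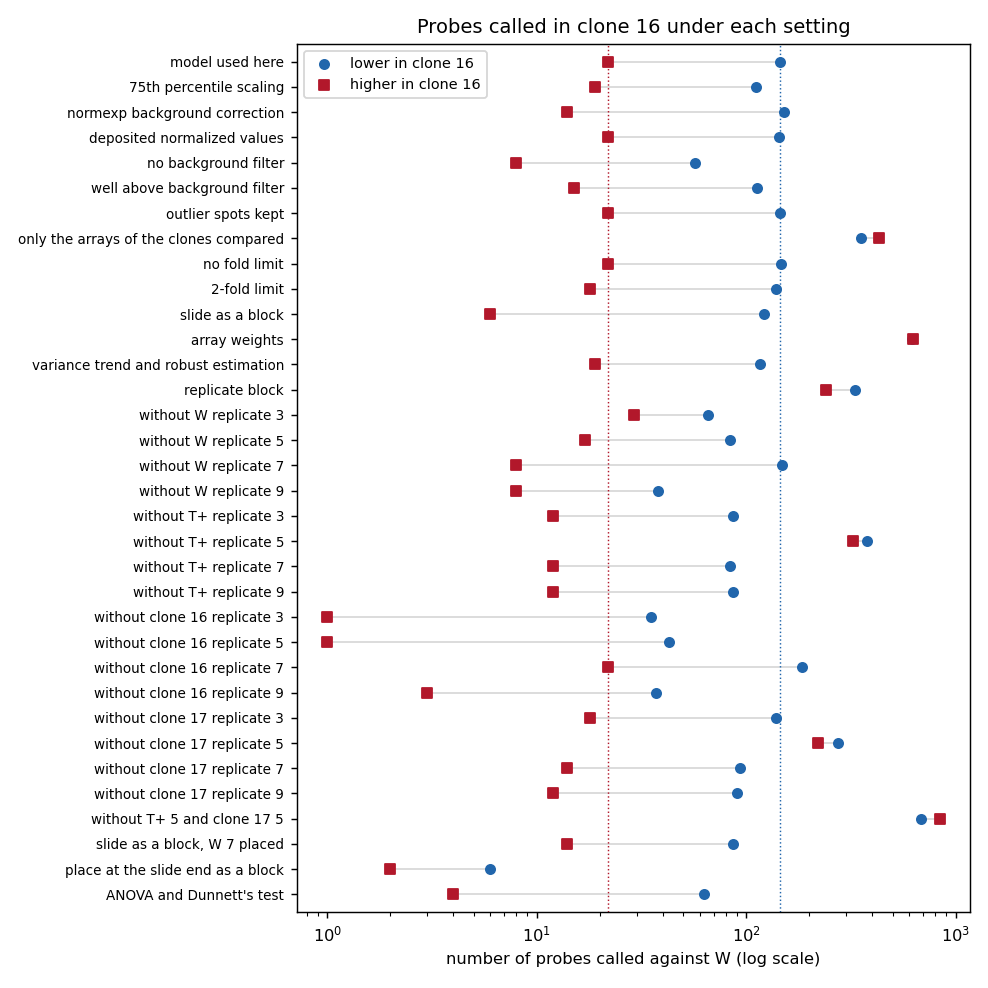
Number of probes called lower (blue) and higher (red) in clone 16 against W, on a log axis, for the model used here in the top row and each alternative below it. Lower calls outnumber higher calls in all rows but 3, namely only the arrays of clone 16 and W, array weights, and the model without the arrays numbered 5 of T+ and clone 17.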

How the data were processed

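Total RNA of single Daphnia magna females was hybridised by the authors to one-colour Agilent arrays, 4 females per clone. The authors deposited the intensity of each spot from Agilent Feature Extraction, release 10.5.1.1 by the file headers, as processed signals not normalized between arrays, and a table of log2 values, here an alternative, that matched the quantile-normalized log2 signals minus each probe's median over the arrays (r = 0.99989 on the least alike array).

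Processed signals of gene probes were taken to log2 with a floor of 1, outlier spots were set to missing, repeated spots were averaged and quantile normalization was applied across arrays. Of 51424 probes, 17286 exceeded the 95th percentile of the negative controls (2840 spots) on 4 or more arrays and were tested. limma 3.58.1 in R 4.3.3 fitted the 16 arrays in 1 model with clone as the only term, two-sided, with Benjamini-Hochberg adjustment. The procedure was tested on simulated data. The number of arrays limits the precision, and a probe not well above background in a line has only a bound there.

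The members, the lists and the rule for named probes (called probes with a name, the kynurenine probes, phospholipase A2, the largest change of each list, and 2 unnamed probes each way) were chosen with earlier results of these data known. The chitinases, chitin deacetylase, the second elongase, HMG-CoA reductase and the other probes given without a call were added after their values were seen. Replicate numbers were not treated as pairs in the model. Other cell type markers could not be looked up, since the annotation used names only the listed probes. The real-time PCR and life-history data were not used here. The alternatives were those shown in the plot of calls by setting, of which the placing of W replicate 7 on a slide and the place at the slide end were added after seeing the data.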

Additional observations from a re-analysis of the deposited data

Results flagged for a closer look

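In 4 probes the value of clone 16 replicate 7 stood apart from the other 3 clone 16 females by more than the 95% limit of Dixon's test for 4 values, which chance passes in about 1 of 20 groups. These were cuticular protein 49Ag (CUST_102541) at 12.49, the peritrophin-like protein 1-F (CUST_18986) at 6.50, ELOVL fatty acid elongase 4 (CUST_24704) at 5.12 and phospholipase A2 (CUST_89819) at 5.57 on the log2 scale. In each the replicate was higher than the rest of its line and below every W array. Replicate 7 was the highest clone 16 array in 22 of the 24 called named probes, so these 4 are not separate results. How many probes would pass the limit by chance was not worked out. The elongase probe was not well above background on that array. In it, the peritrophin-like probe and the phospholipase A2 probe, none of the other clone 16 arrays was well above background. The rate of 1 in 20 need not hold for such values.

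Clone 16 differed from another mutant line in 2 of the probes described. Chitotriosidase-1 (CUST_33489) was 1.79 log2 units higher in clone 16 than in T+. The other tested chitinase probes of its gene model were also higher than in T+, but were not called. The unnamed probe CUST_48867 was 4.86 log2 units higher in clone 16 than in T+ and 4.85 higher than in clone 17, fitted differences against lines in which it was not well above background.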

How the results depend on the processing

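All 24 called named probes and the median of the listed probes kept their direction under every alternative, and the calls of 23 of the 24 were lost under at least 1. The deposited values, kept outlier spots, a fold limit of none or 2, the filter on the background mark and 75th percentile scaling changed none of the counts of calls over all probes by over 1.5 times. Of the 24 named probes 13 stayed called with 75th percentile scaling, 11 without a background filter, 11 by ANOVA and Dunnett's test and 1 with the place at the slide end. Without a background filter 57 probes were lower and 8 higher, and 2 differed from clone 17. With normexp 14 were higher, and in 14 of the 24 named probes the fold moved by over 1.5 times. With only the arrays compared 352 were lower and 429 higher, with 142 calls against T+ and 13 against clone 17. With array weights the counts were 616, 627, 4087 and 3464, and without the arrays numbered 5 of T+ and clone 17 they were 686, 840, 3193 and 2696. With the slide as a block, W replicate 7 left out, 6 were higher, and with that array placed 86 were lower and 14 higher. With the place at the slide end as a block 6 were lower and 2 higher. By ANOVA and Dunnett's test, which gives no value between mutants, 63 were lower and 4 higher. Leaving out 1 array gave 35 to 376 lower, 1 to 323 higher, 4 to 2642 calls against T+ and 1 to 1792 against clone 17. The cause of these changes was not tested. The replicate number as a block gave 329 lower, 240 higher, 13 calls against T+ and 6 against clone 17, and TDO2 (CUST_19559) was called with it. The deviations of equally numbered clone 16 and W females correlated at 0.11, −0.04, 0.06 and −0.25, and 2 of the 4 clone 16 females correlated best with their own number. Equal numbers were not compared between the mutant lines. For TDO2 replicate 5 was the highest array of each mutant line, with 7.09 in clone 16, 6.93 in T+ and 6.67 in clone 17.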
